A study of Rattus norvegicus with 8 samples.

Results

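The genes described here are 10 genes of fibroblast growth factor (FGF) signaling in osteoblast-like cells, namely the ligands *Fgf1*, *Fgf2*, *Fgf7*, *Fgf9* and *Fgf18*, the receptors *Fgfr1*, *Fgfr2* and *Fgfr3*, and the inhibitors *Spry2* and *Spry4*. They were chosen by name, and all 10 were present among the 34912 gene names of the array, on 16 of its 45598 rat probes. RNA came from cultured cells that had been isolated by enzymatic digestion of the calvariae of Wistar rats aged 3 to 5 days and were not sorted. In 4 samples the cells were left non-irradiated (0 J/cm2), and in 4 others they were exposed for 60 s to an Er:YAG laser, a mid-infrared dental laser, at 3.3 J/cm2, with the medium taken off before exposure. Both groups were labeled as collected at 6 h. In the study's quantitative PCR protocol, confluent dishes were refilled after exposure with osteoinduction medium, which held ascorbic acid, beta-glycerophosphate and dexamethasone. The medium of the array samples is not stated separately. Each sample was read on 1 one-color array, and each replicate number from 1 to 4 stands for 1 non-irradiated and 1 irradiated sample, here called a pair.

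Most FGFs are secreted proteins that bind, together with heparan sulfate, to receptor tyrosine kinases on the cell surface. An active receptor passes its signal through adaptor proteins to the Ras and MAP kinase cascade, and this cascade switches on its own inhibitors, among them the sprouty proteins and the phosphatase gene *Dusp6*. In skull bone, FGF signaling governs the growth of osteoblast precursors and their differentiation, and activating mutations of *Fgfr2* are a known cause of premature fusion of the skull sutures.

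The 60-base probes below are shown because the values of *Fgf2*, *Fgf18* and *Spry2* given further on were read with them, and because probes of related ligands could in principle pick up each other's RNA. The *Fgf7* probe is the second of 2 for its gene. Capitals mark the longest run of bases, 11, that any pair of probes of different genes in this set had in common on the same strand, out of 113 pairs of probes compared.
Fgf2 (probe A_44_P212850): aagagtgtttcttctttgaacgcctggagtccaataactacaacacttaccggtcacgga
Fgf7 (probe A_44_P392234): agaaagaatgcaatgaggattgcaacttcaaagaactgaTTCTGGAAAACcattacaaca
Fgf18 (probe A_44_P556319): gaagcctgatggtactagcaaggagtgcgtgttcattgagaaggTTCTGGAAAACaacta
Spry2 (probe A_44_P253012): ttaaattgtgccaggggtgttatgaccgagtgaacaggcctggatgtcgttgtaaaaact

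On the genome build rn4, which the array's annotation uses, the *Fgf2* probe lies on the plus strand at chr2:123946945-123947004 and the *Spry2* probe on the minus strand at chr15:90009823-90009882. The *Fgf7* probe covers chr3:113516353-113517401, a span of 1049 bases for a probe of 60, so its bases are not contiguous in the genome. The *Fgf18* probe is written as unmapped. The probe of *Spry4* (chr18:31532750-31532809) and those of *Fgf1* lie on the same chromosome and strand, with 250 kb between them. Exon and UTR annotation for this build was not used here.

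All 8 arrays were on 1 slide, with between 26543 and 30490 probes well above background and 0 saturated spots on each. The 4 arrays per group limit the precision of every value below. All 12 osteoblast markers examined, among them *Runx2*, *Sp7*, *Alpl*, *Bglap* and *Col1a1*, were well above background on all 8 arrays. Of markers of other cells that a calvarial digest could hold, 3 of 7 for macrophages, 5 of 6 for endothelium, 5 of 6 for muscle and 4 of 6 for cartilage also were. On the log2 scale, the summed signal of the 12 osteoblast markers lay between 19.40 and 19.56 on non-irradiated and between 19.10 and 19.53 on irradiated arrays. As linear signals were summed, most of this sum came from *Col1a1*, *Col1a2* and *Sparc*, with non-irradiated log2 means of 18.21, 17.53 and 17.49. Single osteoblast markers varied more, *Alpl* over 2.51 and *Bglap* over 2.16 log2 units on the 8 arrays. The log2 of the summed cartilage signal ran from 12.11 to 17.21 on non-irradiated and from 11.89 to 17.31 on irradiated arrays. In bulk RNA, fewer cells of a type and less RNA per cell cannot be told apart.

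*Fgf9* aside, the genes could be compared, and none passed the test between irradiated and non-irradiated cells. *Fgf1*, *Fgf2*, *Fgf7*, *Fgf18*, the 3 receptors and both sprouty genes were well above background on all 8 arrays, and *Fgf9* on 1. Signals were quantile normalized and transformed to log2, and a gene with several probes was read first on the probe with the highest mean signal, here called its main probe. With limma, a linear model fitted to all 26391 tested probes with the replicate number as a block, 0 of the 9 genes had an adjusted p below 0.1 and 0 had an unadjusted p below 0.05. Over all probes, 0% passed the first level and 2.54% the second. The log2 fold changes of the 9 genes lay between -0.04 and 0.20 with a median of 0.03, where the median over all probes was -0.0035. All 9 of their 95% intervals, which are not adjusted for the number of probes, included 0, and the outermost bounds, as folds, were 0.615 and 1.54. In this fit with the replicate block, changes of 2-fold in either direction thus lay outside the interval of each of these genes at 6 h. Intervals without the block are not given here.

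**Figure D1:**
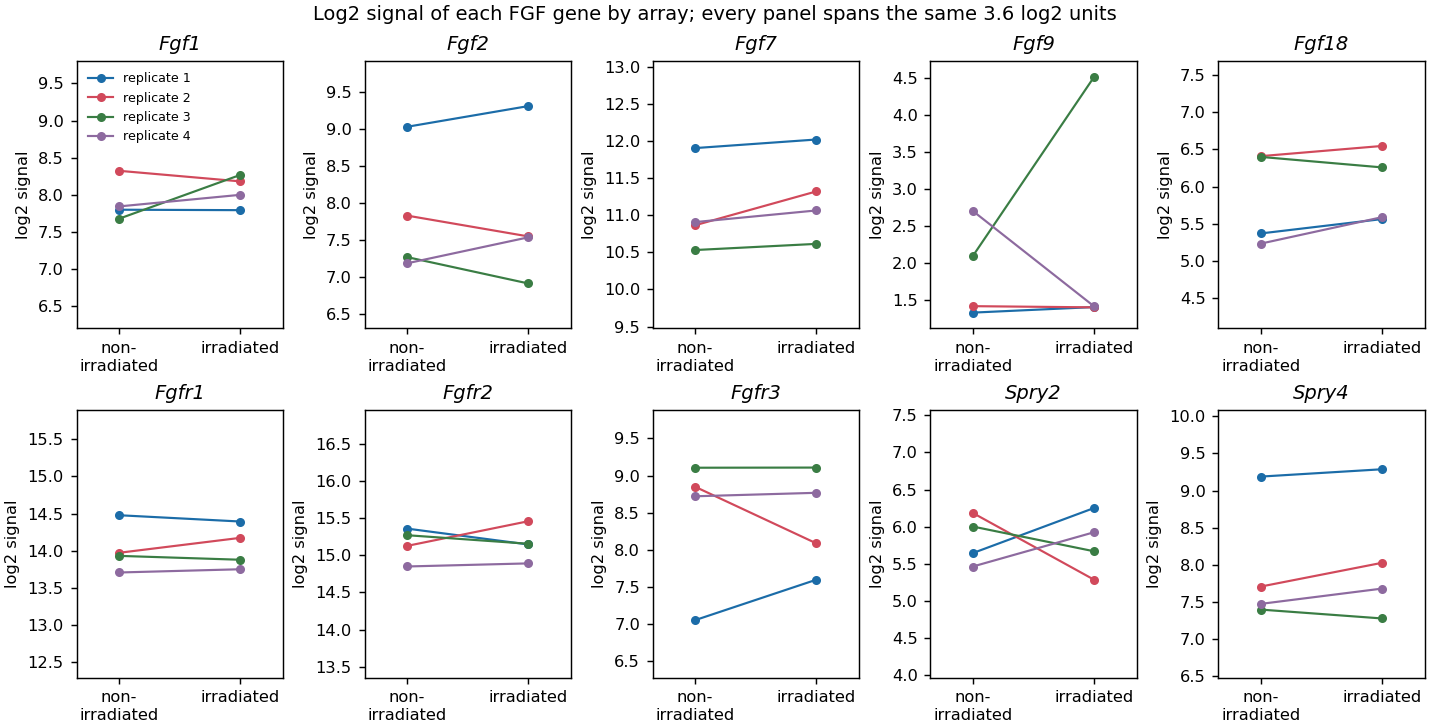
Log2 signal of the main probe of each of the 10 genes, with non-irradiated arrays on the left and irradiated arrays on the right of each panel and a line joining the arrays of a replicate number. The lines of *Fgf2*, *Fgf7* and *Spry4* keep replicate 1 above the other replicates in both groups, and the groups overlap in every panel.

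Among the ligands, *Fgf7*, a factor made by mesenchymal cells that acts on epithelia, had the largest difference. Its log2 signal was 11.90, 10.86, 10.53 and 10.91 in non-irradiated replicates 1 to 4 and 12.02, 11.32, 10.61 and 11.06 in irradiated replicates 1 to 4. Every irradiated sample was above its own partner, but the groups overlapped, with replicate 1 highest in both. Non-irradiated samples averaged 11.05 ± 0.59 and irradiated samples 11.25 ± 0.59 (SD, n = 4 each). The pairs differed by 0.12, 0.46, 0.08 and 0.16, which gave a log2 fold change of 0.20 with a standard error of 0.12 and, from limma, an adjusted p of 1.00. By an exact two-sided sign-flip test of these differences p was 0.125, which is the lowest value possible with 4 pairs. *Fgf7* was the only one of the 9 genes higher in 4 of 4 pairs, as were 3.57% of all probes, and 0 of the 9 were lower in 4 of 4, as were 4% of all probes. The second *Fgf7* probe, whose sequence is printed above, was higher in only 2 of 4 pairs, with a log2 fold change of 0.08 (standard error 0.13).

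*Fgf2*, a ligand stored in bone matrix, read 9.03, 7.83, 7.27 and 7.19 in non-irradiated and 9.30, 7.55, 6.92 and 7.54 in irradiated replicates 1 to 4. Irradiated arrays were higher in replicates 1 and 4 and lower in replicates 2 and 3. The mean was the same in both groups, at 7.83 ± 0.85 and 7.83 ± 1.03 (SD, n = 4 each). The 95% interval of the log2 fold change ran from -0.41 to 0.41. A second *Fgf2* probe was well above background on only 1 irradiated array and was not tested.

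*Fgf1*, a ligand that binds all FGF receptors, read 7.80, 8.32, 7.68 and 7.84 in non-irradiated and 7.79, 8.18, 8.27 and 8.0 in irradiated replicates 1 to 4. Its mean was 7.91 ± 0.28 and 8.06 ± 0.21 (SD, n = 4 each), a log2 fold change of 0.15 (95% interval from -0.23 to 0.52). Most of that difference came from pair 3, at 0.59. A second *Fgf1* probe, annotated with another accession, gave -0.05 (standard error 0.12).

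*Fgf18*, a ligand that is needed for normal bone and cartilage growth, read 5.37, 6.41, 6.40 and 5.23 in non-irradiated and 5.56, 6.55, 6.26 and 5.59 in irradiated replicates 1 to 4. Replicates 2 and 3 were high and replicates 1 and 4 low in both groups. The log2 fold change was 0.14 (95% interval from -0.18 to 0.45), with 3 of 4 pairs higher after irradiation.

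*Fgf9*, a ligand expressed in developing skeleton, was not well above background on any non-irradiated array, where it read 1.34, 1.42, 2.10 and 2.70. It read 1.41, 1.41, 4.51 and 1.42 in irradiated replicates 1 to 4 and was well above background only in replicate 3. The lowest log2 signal of any probe well above background was between 3.29 and 4.04 on the 8 arrays, so the other *Fgf9* values have no order. The probe was not tested, and no fold is given.

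The receptors were well above background on all 8 arrays on their main probes. *Fgfr1*, the receptor typical of mesenchyme, read 14.48, 13.97, 13.93 and 13.71 in non-irradiated and 14.39, 14.17, 13.88 and 13.75 in irradiated replicates 1 to 4. The pairs differed by at most 0.20, and the log2 fold change was 0.03 (95% interval from -0.25 to 0.31). Another 2 *Fgfr1* probes were far dimmer, with non-irradiated means of 4.39 and 7.27 against 14.02 on the main probe. The dimmest was not well above background on 1 non-irradiated array. They gave log2 fold changes of 0.18 and 0.17, each close to its standard error of 0.17 and 0.16.

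*Fgfr2*, a receptor of the skull sutures, read 15.36, 15.13, 15.27 and 14.85 in non-irradiated and 15.15, 15.46, 15.16 and 14.89 in irradiated replicates 1 to 4. It had the narrowest spread of the 9 genes, 0.61 over the 8 arrays, and a log2 fold change of 0.01 (95% interval from -0.32 to 0.34). A second probe, with a non-irradiated mean of 7.28 against 15.15 on the main probe, gave -0.04 (standard error 0.17).

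*Fgfr3*, a receptor that restrains the growth of cartilage, read 7.05, 8.85, 9.11 and 8.72 in non-irradiated and 7.60, 8.09, 9.11 and 8.77 in irradiated replicates 1 to 4. Replicate 1 was lowest in both groups. Pair 1 differed by 0.54 and pair 2 by -0.76, and the log2 fold change was -0.04 (95% interval from -0.57 to 0.49).

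The sprouty genes, which FGF signaling switches on and whose products restrain it, were both well above background throughout. *Spry4* read 9.19, 7.71, 7.40 and 7.48 in non-irradiated and 9.29, 8.03, 7.28 and 7.68 in irradiated replicates 1 to 4, with replicate 1 high in both. Its log2 fold change was 0.13 (95% interval from -0.18 to 0.43). *Spry2* read 5.64, 6.18, 6.00 and 5.46 in non-irradiated and 6.25, 5.29, 5.67 and 5.93 in irradiated replicates 1 to 4. Irradiated arrays were higher in pairs 1 and 4 and lower in pairs 2 and 3, with differences of 0.61, -0.90, -0.33 and 0.46 in pairs 1 to 4. Its interval was the widest of the 9 genes, from -0.70 to 0.62 around a log2 fold change of -0.04.

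**Figure D2:**
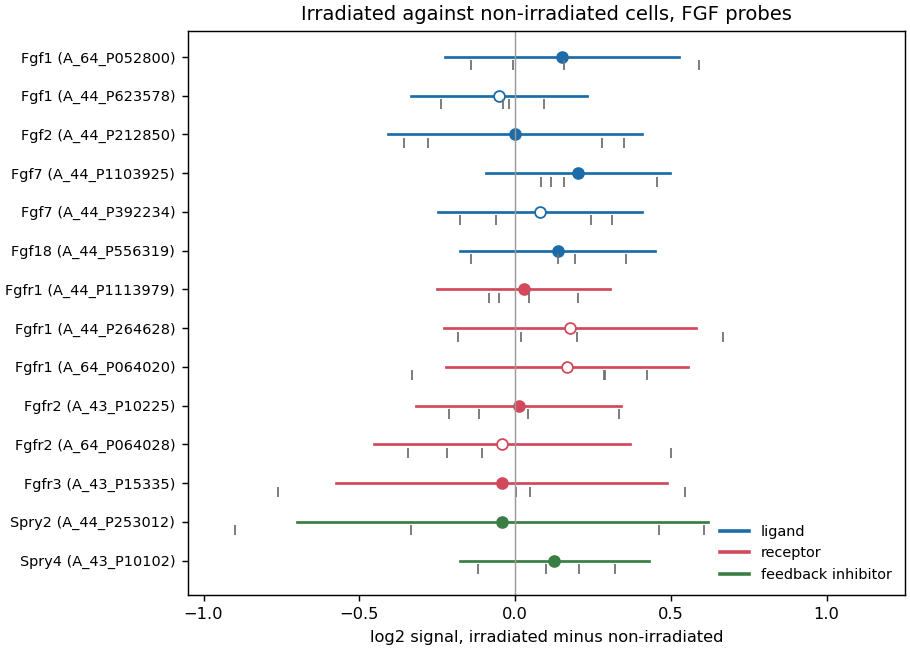
Difference in log2 signal, irradiated minus non-irradiated, for the 14 probes that were tested. Points are limma estimates (filled for the main probe of a gene, open for other probes), bars are 95% intervals and short ticks under each bar are the 4 pairs. All 14 bars cross 0, and the ticks of *Spry2* and *Fgfr3* are spread widest.

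The means of the 4 replicate numbers spanned a median of 1.07 log2 units over the 9 genes, against 0.56 over all probes. The median absolute log2 fold change with irradiation was 0.04 for the 9 genes and 0.08 for all probes. The first is a range and the second a mean of signed pair differences, which can cancel. Their sizes are therefore not comparable with each other. *Fgf2*, *Fgf7* and *Spry4* differed between replicate numbers, and all of them were highest in replicate 1 with and without irradiation. The names of the deposited files give both arrays of a number the same rat number, so that each number was read on a pair of arrays. The arrays of number 2 were little alike, however. Across probes, their deviations from group means correlated at 0.0542, against 0.608, 0.571 and 0.749 for numbers 1, 3 and 4. Readings that rest on pair 2 are limited by this. A moderated F test of the replicate terms in the same limma fit, over the 26250 probes with a value on all arrays, gave an adjusted p below 0.05 for 3 of the 9 genes, where 3.27% of all probes had one. Arrays of a pair lay side by side on the slide, so replicate number and slide position cannot be told apart.

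The mean log2 signal of *Spry4* over both arrays was 9.24 in replicate 1 and 7.87, 7.34 and 7.58 in replicates 2 to 4 (limma F test adjusted p = 0.0176). The highest and lowest of these means were 1.90 log2 units apart, or 3.73-fold. The log2 fold change of *Spry4* with irradiation, which is a mean over pairs and not a range, was 0.13. For *Fgf2* the means were 9.16, 7.69, 7.09 and 7.36 (adjusted p = 0.0307), a 4.2-fold range. For *Fgf7* they were 11.96, 11.09, 10.57 and 10.98 (adjusted p = 0.0420), a 2.62-fold range. The second *Fgf7* probe had the same order of replicates, at 9.60, 8.76, 8.18 and 8.62, with an adjusted p of 0.0502.

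*Fgf18* and *Fgfr3* also ranged over more than 1 log2 unit between replicates but missed the level here. *Fgf18* had replicate means of 5.47, 6.48, 6.33 and 5.41 (adjusted p = 0.0507), and *Fgfr3* of 7.33, 8.47, 9.11 and 8.75 (adjusted p = 0.0805). *Fgf18* was below the level with scaling to the 75th percentile (limma F test adjusted p = 0.0367) and under several other settings, and *Fgfr3* on the deposited values (adjusted p = 0.0459). In *Fgfr3* the order of replicates was the opposite of that in *Fgf2*, with replicate 1 lowest and replicate 3 highest. Of the 9 genes, 5 had replicate means over a range above 1 log2 unit, as did 17.8% of all probes. *Fgfr1*, *Fgfr2*, *Fgf1* and *Spry2* ranged over 0.71, 0.42, 0.46 and 0.25 on their main probes. The probes of *Fgf1* were at odds here, since its second probe, at 5.28, 5.68, 6.09 and 6.68, passed the level (adjusted p = 0.0353) with replicate 1 lowest. Those of *Fgfr1* differed in order, with replicate 4 lowest on the main probe, at 13.73, and highest on another, at 7.72. Neither of these *Fgfr1* probes passed the level.

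The count of 3 genes depended on which replicates were in the fit. Without replicate 1, 0 of the 9 genes and 0 of all probes had an adjusted p below 0.05, and *Spry4* had an adjusted p of 0.346. Without replicate 3 or replicate 4 the count was also 0, with adjusted p of *Spry4* at 0.0771 and 0.0789, beside 0.423% and 0.396% of all probes. Without replicate 2 it was 6, beside 21% of all probes.

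**Figure D3:**
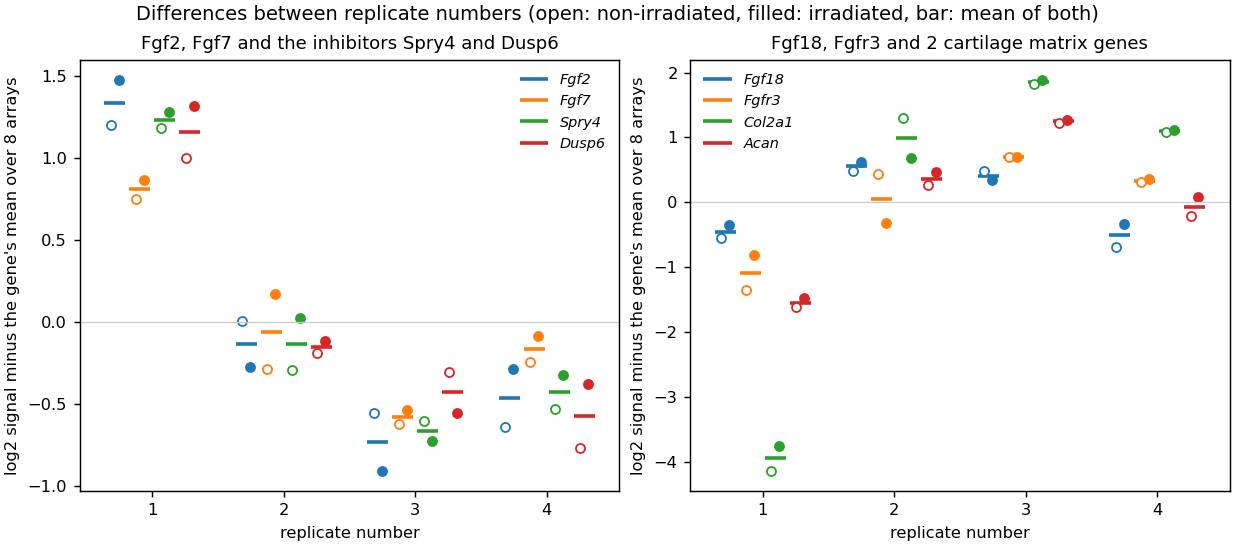
Log2 signal minus the mean of each gene over the 8 arrays, by replicate number, with open points for non-irradiated arrays, filled points for irradiated arrays and a bar at the mean of both. On the left *Fgf2*, *Fgf7*, *Spry4* and *Dusp6* stand highest in replicate 1, and on the right *Fgfr3* and the cartilage genes *Col2a1* and *Acan* stand lowest there, while *Fgf18* is low in replicates 1 and 4. *Dusp6*, *Col2a1* and *Acan* were chosen after their values were seen.

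Some markers of other cells, and some osteoblast markers, also differed between replicate numbers. *Col2a1*, the main collagen of cartilage, had a mean log2 signal of 10.04 in replicate 1 against 14.98, 15.85 and 15.09 in replicates 2 to 4 (limma F test adjusted p = 0.00234). *Col9a1*, another cartilage collagen gene, was at 10.23 against 16.13, 16.53 and 15.30, and *Acan*, which encodes the cartilage proteoglycan, at 6.34 against 8.25, 9.13 and 7.82. Of the marker lists, 3 of 5 tested genes for cartilage, 2 of 5 for endothelium and 1 of 5 for muscle passed the same level. For osteoblasts it was 2 of 12 and for macrophages 0 of 3, beside 3.27% of all probes. The osteoblast genes were *Alpl*, at 10.74, 10.34, 10.32 and 8.51 in replicates 1 to 4, and *Bglap*, at 8.81, 8.02, 8.20 and 6.85. Both were highest in replicate 1 and lowest in replicate 4. The cartilage marker *Sox9*, at 10.74, 11.57, 11.35 and 10.72 in replicates 1 to 4, did not pass. The endothelial marker *Vwf*, at 12.92, 13.81, 12.85 and 12.74, did not pass either. For endothelium *Kdr* passed, at 9.32, 9.31, 7.64 and 7.24 in replicates 1 to 4, and *Tek*, at 8.02, 6.10, 5.76 and 6.28. *Myh3*, an embryonic myosin gene that passed for muscle, was at 10.93 in replicate 1 and 8.91, 7.13 and 6.52 in the others. Of the muscle genes that did not pass, *Myog* and *Ckm* were highest in replicate 1, at 7.13 and 6.87. *Des* and *Acta1* were not, at 5.20 and 6.54 there. The endothelial marker *Tie1* was not well above background on any array. The part of other cells in the differences of *Fgf2*, *Fgf7*, *Spry4* and *Fgfr3* between replicates was not tested.

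*Fgf2* had the widest range over the 8 arrays of the genes above background throughout, 2.39 log2 units, and was used to look for genes with a like pattern. After subtracting each probe's mean, the 5 of 20492 genes nearest to it by root mean square difference over the 8 arrays were *Fez1* (0.14 log2 units), *Rai14* (0.15), *Rgs2* (0.16), *Lgals3bp* (0.17) and *Plvap* (0.17). *Rgs2*, a regulator of G-protein signaling, had replicate means of 11.66, 10.32, 9.56 and 9.83, and its pairs differed by 0.03, -0.20, 0.07 and 0.04. *Plvap*, a gene of endothelial vessels, had replicate means of 6.41, 4.98, 4.32 and 4.25.

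A list of 67 further genes of the pathway was read in the same fit, on 1 probe per gene. Of these, 50 were well above background on all 8 arrays, 4 on none, and 53 were tested. Of the 53, 28 were higher and 25 lower in irradiated cells, with a median log2 fold change of 0.0068. At an unadjusted p below 0.05 there were 2 genes, both higher, and 0 had an adjusted p below 0.1, beside the 2.54% and 0% of all probes given above.

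Both genes were higher in 4 of 4 pairs, as were 3.57% of all probes. They were picked by their p from these same differences, so this is not separate evidence. *Sdc3* encodes syndecan 3, a cell surface proteoglycan that carries heparan sulfate. It read 4.99, 5.00, 5.19 and 4.56 in non-irradiated and 5.70, 6.15, 5.71 and 4.71 in irradiated replicates 1 to 4. The groups overlapped only through irradiated replicate 4. The log2 fold change of 0.63 had a 95% interval from 0.19 to 1.07, and its adjusted p in limma was 1.00. *Dusp5*, which encodes a nuclear phosphatase of ERK, read 11.36, 11.31, 11.31 and 11.17 in non-irradiated and 11.62, 11.75, 11.53 and 11.35 in irradiated replicates 1 to 4. The pairs differed by 0.26, 0.44, 0.23 and 0.18, a log2 fold change of 0.28 with a standard error of 0.11 and an adjusted p of 1.00 in limma. Neither was at an unadjusted p below 0.05 without the replicate block, and *Dusp5* was not when any one of the 4 replicates was left out. *Sdc3* was also not on the deposited values or with the probes of a gene averaged, and *Dusp5* not with scaling to the 75th percentile.

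**Figure D4:**
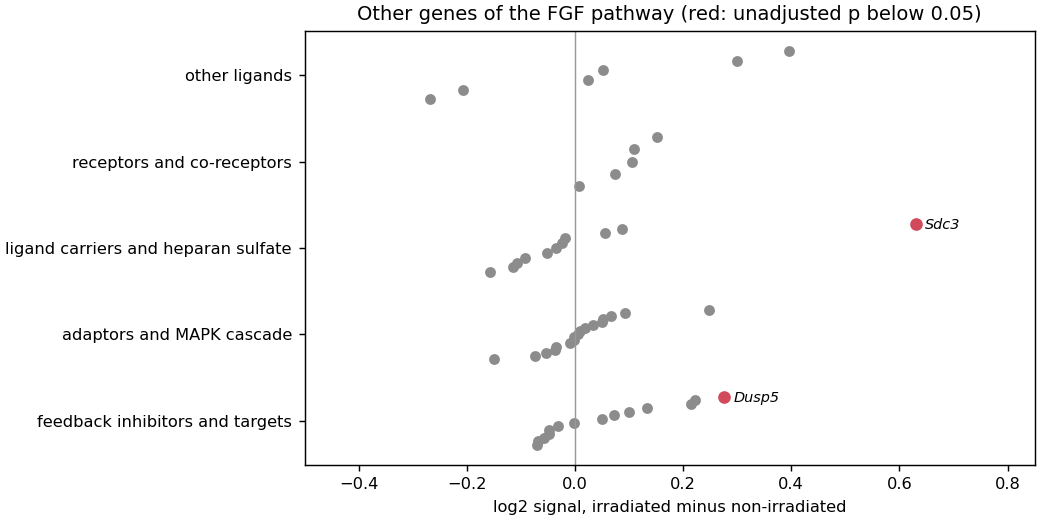
Log2 fold change, irradiated minus non-irradiated, of the 53 tested genes of the pathway list, 1 point per gene and 1 row per role. *Sdc3* at 0.63 and *Dusp5* at 0.28, in red, were the genes at an unadjusted p below 0.05, and the other points are grey.

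Among the 16 other FGF genes of the list, not all of which encode secreted ligands, 5 were well above background on all 8 arrays. Of the 16, 6 were tested. *Fgf4* had the highest log2 fold change of those on all 8 arrays, 0.30 (standard error 0.16), and *Fgf23*, the hormone by which bone regulates phosphate, the lowest, -0.27 (standard error 0.20). The *Fgf23* value of irradiated replicate 2 was missing because its spot was marked as outlying, so that the estimate rests on 3 pairs. *Fgf17* was next lowest, at -0.21 (standard error 0.15).

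The 5 receptors and co-receptors that were tested had a median log2 fold change of 0.11, and 0 had an unadjusted p below 0.05. *Kl*, the co-receptor of *Fgf23*, was not well above background on any array, and *Fgfr4* was on 3 of 8. Among 11 ligand carriers and heparan sulfate genes that were tested, *Sdc3* alone was at an unadjusted p below 0.05, and 8 were lower in irradiated cells. *Fgfbp3*, which encodes a carrier that releases FGFs from heparan sulfate, was the lowest of these, at -0.16 (standard error 0.17). The 17 adaptors and kinases of the MAP kinase cascade had a median of 0.0051, with 9 higher and 8 lower and 0 at an unadjusted p below 0.05.

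The 14 feedback inhibitors and targets split evenly, with 7 higher and 7 lower. *Dusp6*, which encodes the cytoplasmic phosphatase of ERK, was the only one of them that differed between replicate numbers (limma F test adjusted p = 0.0327). Its replicate means were 13.96, 12.65, 12.37 and 12.23, again with replicate 1 highest, and its log2 fold change with irradiation was 0.13 (standard error 0.15). *Dusp6* was 1 of the 53 pathway genes that did so, a share no higher than the 3.27% of all probes. The rest of the 14 were mixed in replicate 1 minus the mean of the other replicates. This difference was 1.13 for *Spry1*, 0.94 for *Il17rd*, 0.93 for *Spred3*, 0.43 for *Etv5*, 0.38 for *Cbl*, 0.32 for *Spred1* and 0.09 for *Dusp5*. It was -0.55 for *Ccnd1*, -0.24 for *Spred2*, -0.18 for *Etv4*, -0.17 for *Etv1*, -0.17 for *Dusp4* and -0.11 for *Spry3*.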

How the data were processed

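Spot intensity was deposited from Agilent Feature Extraction 11.0.1.1, background and trend corrected within each array only. The authors also deposited quantile normalized log2 values for 24029 rows, with column medians from 7.62 to 7.66, so that they are not centred on genes. Here processed signals of 58717 rat probe spots were log2 transformed and quantile normalized, outlying spots left out, and spots averaged by probe. Probes were tested when above background, in over 50% of spots, on all 4 arrays of a group. The fit used limma 3.58.1 in R 4.3.3, with replicate number as block and Benjamini-Hochberg adjustment over all tested probes. Tests were two-sided. The fit was tested on simulated data. The block follows the t values of the study's table and the rat numbers in file names. Deviations from group means correlated within numbers 1 to 4 at 0.608, 0.0542, 0.571 and 0.749 across probes. The highest correlation across numbers, 0.439 between irradiated replicate 2 and non-irradiated replicate 1, exceeded that of pair 2.

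The members and lists were chosen with earlier results of these data known. Named besides the members are pathway genes at an unadjusted p below 0.05, the 3 highest and 3 lowest above background on all 8 arrays, the 5 genes nearest to the member of widest range, and genes chosen after their values were seen (*Dusp6*, *Kl*, *Fgfr4* and markers). Other settings tried were the 75th percentile as scale, normexp (offset 50), mean signals, deposited values, other filters, outlying spots kept, averaged probes, another variance prior, each replicate left out, and no or a random block.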

Additional observations from a re-analysis of the deposited data

Results flagged for a closer look

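Of 43 groups of 4 arrays, over all probes of the 10 FGF genes and the named pathway genes, 2 held an array far from the other 3, or 4.65%, where chance gives about 5%. Each stood apart from the nearest array by most of the group's range. *Fgf9* read 4.51 in irradiated replicate 3 against 1.41 to 1.42 on the other irradiated arrays, and 2.10 in its non-irradiated partner. Only the 4.51 was well above background, so the others lie at the floor and the distance to them is not a measured one. *Fgf4* read 4.21 in irradiated replicate 1 against 4.74 to 4.80 on the other irradiated arrays, and 4.43 in its partner.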

How the results depend on the processing

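Under all 15 alternatives, 0 of the tested FGF genes had an adjusted p below 0.1 and 0 an unadjusted p below 0.05 for irradiation, including with no replicate block. *Fgf1*, *Fgf7*, *Fgf18* and *Spry4* kept their direction under all of them, but with a replicate left out ranged from 0.0026 to 0.247, 0.118 to 0.243, 0.0632 to 0.229 and 0.0617 to 0.208 in that order, with the lowest value without replicate 3, 2, 4 and 2. Small changes turned sign elsewhere, and the cause was not tested. Scaled to the 75th percentile, *Fgf2* was at 0.0113 and *Spry2* at 0.0234. On the deposited values *Fgfr2* was at -0.0556 and *Fgfr3* at 0.0272, and with probes averaged *Fgfr2* was at -0.0155. With each replicate left out in turn, *Fgf2* lay from -0.119 to 0.116, *Fgfr1* from -0.0311 to 0.0642, *Fgfr2* from -0.0958 to 0.0862, *Fgfr3* from -0.238 to 0.198 and *Spry2* from -0.257 to 0.245. *Fgf2* and *Spry2* turned without replicate 2 and without replicate 3, at 0.0913 and 0.116 and at 0.245 and 0.0567, and the receptors without replicate 2. The count of FGF genes that differed between replicate numbers, 3, was 0 with no filter on dim probes, where 45585 probes were tested, and between 0 and 6 with a replicate left out. No such count could be had with no or a random replicate block. It was 3 or 4 under the remaining alternatives, always with *Fgf2*, *Fgf7* and *Spry4*. *Fgf18* joined them with scaling to the 75th percentile, normexp, mean signals, all 8 arrays above background, probes averaged, the other variance prior and without replicate 2, and *Fgfr3* on the deposited values and without replicate 2. The count of pathway genes at an unadjusted p below 0.05, 2, was 1 when scaled to the 75th percentile, 1 on the deposited values, 1 with probes averaged, 4 with no filter and 0 with no replicate block, and between 1 and 4 with a replicate left out. *Sdc3* dropped out on the deposited values, with probes averaged and with no replicate block, and was among them without any one replicate. *Dusp5* dropped out when scaled to the 75th percentile, with no replicate block and without any one replicate.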
